A study of Mus musculus with 9 samples.

Results

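The 35 genes described here encode proteins that hold, dock, prime, fuse and recover synaptic vesicles in nerve terminals. They were chosen by name, as the rows of the deposited count table that carry one of 35 gene symbols, out of 21899 genes in that table. The 9 libraries came from the PVT (paraventricular thalamus), a nucleus near the third ventricle with a role in wakefulness, dissected from mice labelled WT; the source is given as brain. The groups were LPS 7d (lipopolysaccharide, a bacterial cell wall component, taken 7 days after the injection), LPS 1d (lipopolysaccharide, taken after 1 day) and PBS 1d (phosphate-buffered saline, taken after 1 day), with 3 libraries each. All injections went into the peritoneal cavity, and the study asked how LPS changes transcripts in the PVT at these times. The 9 libraries held no saline group from day 7, and where LPS 7d is set against PBS 1d, day and treatment cannot be told apart. The labels used here give no strain, age, sex or dose, and do not say whether the libraries of a group came from separate mice, which means that the p-values rest on spread among libraries that may be technical.

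Neurotransmitter is stored in vesicles that are tethered at the active zone, a protein scaffold of the presynaptic membrane. Fusion is driven by the SNARE proteins of the vesicle (Vamp) and of the plasma membrane (syntaxin and Snap25), prepared by Munc13 and RIM proteins, held by complexins and triggered by calcium binding to synaptotagmin. The SNAREs are then taken apart by Nsf, and the vesicle membrane is retrieved by dynamin and its partners. Several of these proteins come in related forms that neurons of different brain regions use in different amounts: synaptotagmin-2 and Vamp1 are known from brainstem, spinal cord and cerebellum, whereas synaptotagmin-1 and Vamp2 prevail in the forebrain.

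The largest rises and the largest fall among the members were those of Syt2, Vamp1 and Stx1a at LPS 7d. Their promoter sequences are therefore printed first, from RefSeq on build GRCm38.p6, each from 250 bases before to 50 bases after a transcription start. The deposited gene positions below are on GRCm39 and are not interchangeable with these. Capitals mark the GC box GGGCGG on either strand (CCGCCC on the printed strand), the motif bound by Sp1-type factors; 2 starts are listed for Syt2.
Syt2 upstream start, chr1:134646362-134646661, plus strand: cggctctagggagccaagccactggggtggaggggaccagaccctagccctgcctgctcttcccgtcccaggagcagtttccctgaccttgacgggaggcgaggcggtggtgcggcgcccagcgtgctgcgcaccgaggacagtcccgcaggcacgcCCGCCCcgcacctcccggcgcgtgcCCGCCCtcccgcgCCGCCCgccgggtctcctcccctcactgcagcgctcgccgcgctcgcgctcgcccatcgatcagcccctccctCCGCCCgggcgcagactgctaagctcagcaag
Syt2 downstream start, chr1:134709050-134709349, plus strand: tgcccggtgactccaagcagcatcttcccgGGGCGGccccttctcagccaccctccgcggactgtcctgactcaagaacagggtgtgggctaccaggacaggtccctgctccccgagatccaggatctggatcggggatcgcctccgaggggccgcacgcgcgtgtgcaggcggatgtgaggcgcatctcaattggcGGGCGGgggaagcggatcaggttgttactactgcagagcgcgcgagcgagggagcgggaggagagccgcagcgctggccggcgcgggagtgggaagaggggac
Vamp1, chr6:125215331-125215630, plus strand: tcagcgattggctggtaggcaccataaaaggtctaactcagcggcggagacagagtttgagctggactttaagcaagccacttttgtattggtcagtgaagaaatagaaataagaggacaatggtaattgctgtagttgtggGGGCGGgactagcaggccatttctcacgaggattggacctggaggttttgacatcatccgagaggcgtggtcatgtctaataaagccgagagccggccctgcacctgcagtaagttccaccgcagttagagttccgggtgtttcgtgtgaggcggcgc
Stx1a, chr5:135023232-135023531, plus strand: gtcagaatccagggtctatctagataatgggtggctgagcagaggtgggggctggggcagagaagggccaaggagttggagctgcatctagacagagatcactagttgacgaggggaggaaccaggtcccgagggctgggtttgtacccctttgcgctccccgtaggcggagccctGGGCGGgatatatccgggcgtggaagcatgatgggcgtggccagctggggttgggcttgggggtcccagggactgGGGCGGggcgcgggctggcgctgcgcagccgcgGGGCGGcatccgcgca
The upstream Syt2 window held 4 GC boxes and the downstream one 2, the Stx1a window held 3 and the Vamp1 window 1. RefSeq windows were matched for 28 of the 35 members (33 windows); Syn3, Syt4, Syt5, Syt7, Snap25, Vamp2 and Rims2 had no entry. A GC box lay in 22 of these 33 member windows (66.7%), against 11714 of 32851 windows of all genes (35.7%). A match describes letters and is neither a binding site nor a cause, and it was present both in genes that rose (Syt2, Vamp1) and in a gene that fell (Stx1a).

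The libraries held 13211422 to 17210526 gene counts. Levels below are CPM (counts scaled to a common library total after TMM), and differences are log2 fold changes with their standard error (SE) and an adjusted p from edgeR's quasi-likelihood test over all 14837 genes tested. A gene rose or fell where that p was under 0.05. Sets of marker genes differed between the groups, and those of cerebellum and hindbrain separated the LPS 7d libraries from the others. Summed over 13 cerebellar markers, the level was 1547 to 1579 CPM in LPS 7d, 108 to 118 CPM in LPS 1d and 127 to 134 CPM in PBS 1d, and 13 of 13 were higher in LPS 7d than in either other group. Gabra6, the receptor subunit of cerebellar granule cells, stood at 160 to 167 CPM in LPS 7d, at 0 to 0.0609 CPM in LPS 1d and at 0.0588 to 0.136 CPM in PBS 1d. Summed over 14 hindbrain and spinal cord markers, the level was 72.6 to 82.9 CPM in LPS 7d, 4.05 to 6.15 CPM in LPS 1d and 6.52 to 8.75 CPM in PBS 1d. Of these 14 markers, 1 was at 0 in LPS 7d, 8 in LPS 1d and 10 in PBS 1d, and of the 9 that could be tested 8 were higher in LPS 7d than in PBS 1d. The 11 striatal markers summed to 833 to 855 CPM in LPS 7d, 1167 to 1186 CPM in LPS 1d and 1925 to 1980.2 CPM in PBS 1d. Y-linked genes summed to 90.5 to 102 CPM in LPS 7d, 81.5 to 85.2 CPM in LPS 1d and 0 to 0.0588 CPM in PBS 1d. In PBS 1d, Ddx3y, Eif2s3y and Uty had 0 counts. Any effect of sex on other genes cannot be told apart from treatment. PVT and midline thalamus markers were present in every group, at 1089 to 1130.1 CPM in LPS 7d, 991 to 1003 CPM in LPS 1d and 1199.6 to 1217 CPM in PBS 1d. Of the 12 PVT markers, 2 were higher and 7 lower in LPS 7d than in PBS 1d, and 1 was higher and 9 lower in LPS 1d than in PBS 1d. The 11 cortical and hippocampal markers summed to 1312 to 1352 CPM in LPS 7d, 1892 to 1915 CPM in LPS 1d and 1619.8 to 1724 CPM in PBS 1d; 7 were lower and 1 higher in LPS 7d than in PBS 1d (median log2 fold change -0.26), and 7 lower and 1 higher in LPS 7d than in LPS 1d (median -0.42). The labels give neither the sex of the mice nor details of the dissection. Regional markers also differed between LPS 1d and PBS 1d. Of 11 striatal markers, 10 were lower in LPS 1d and 0 higher (median log2 fold change -0.76). Of 10 hypothalamic markers, 9 were lower and 0 higher (median -0.68), and of the 11 cortical and hippocampal ones 4 were higher and 1 lower. The LPS groups may therefore differ from PBS 1d in sex, and each group from the others in the tissue taken. Neither can be told apart from treatment and day in the comparisons below. The part of these marker differences in the results on the vesicle release genes was not tested. In bulk tissue, fewer cells of a type and less RNA per cell cannot be told apart.

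**Figure D1:**
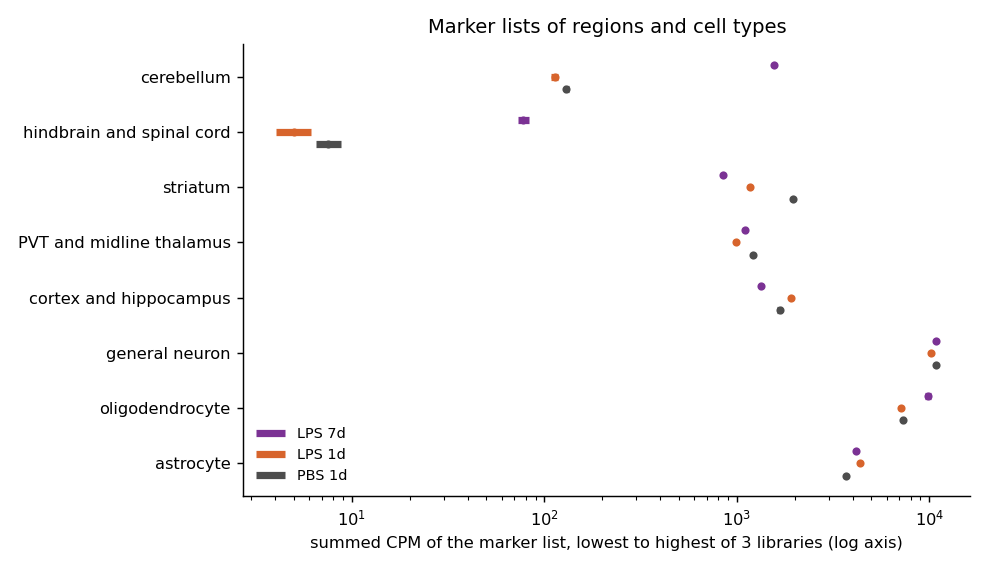
Summed CPM of marker gene lists (log axis) in LPS 7d, LPS 1d and PBS 1d; the line runs over the 3 libraries of a group from lowest to highest and the dot is the geometric midpoint of those values. The cerebellar list stands at 1547 to 1579 CPM in LPS 7d, against 127 to 134 CPM in PBS 1d, while the striatal list is at 833 to 855 CPM in LPS 7d, against 1925 to 1980.2 CPM in PBS 1d.

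All 35 members passed the filter on low counts in the fit. They were abundant: their median level over the 9 libraries was 413 CPM, against 24.0 CPM for all genes tested, which puts it above 97.9% of them. Together they took 1.685 to 1.716% of all counts in LPS 7d, 1.764 to 1.771% in LPS 1d and 1.726 to 1.763% in PBS 1d, so the LPS 7d libraries lay below all others. Levels of different members were set against each other per length, in the authors' deposited FPKM. Cplx1, a clamp and activator of the SNARE complex, headed the PBS 1d libraries at 339 ± 3.67 FPKM (SD, n = 3), followed by Rab3a at 279.8 ± 6.52 and Dnm1 at 255.5 ± 2.62 FPKM. The lowest members there were Unc13b at 2.52 ± 0.190, Syn3 at 1.78 ± 0.139 and Cplx3 at 1.60 ± 0.256 FPKM. Syt2 stood at 33.5 ± 0.623 FPKM in LPS 7d, 13.4 ± 0.636 FPKM in LPS 1d and 11.2 ± 0.331 FPKM in PBS 1d. Syt1, its forebrain relative, stood at 147 ± 0.401 FPKM in LPS 7d, 209 ± 0.941 FPKM in LPS 1d and 189.9 ± 3.39 FPKM in PBS 1d.

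**Figure D2:**
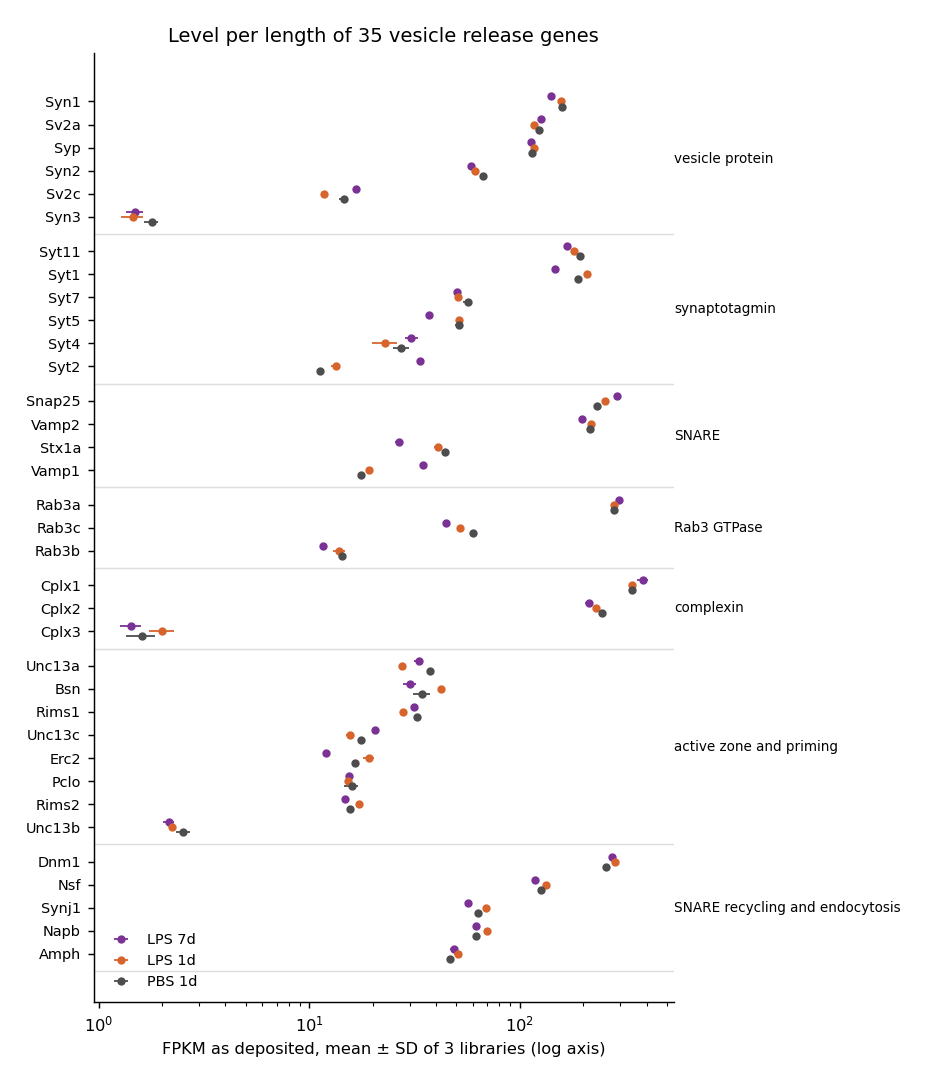
Deposited FPKM (log axis, mean and SD of 3 libraries) of the 35 members, grouped by role, in LPS 7d, LPS 1d and PBS 1d. Levels run from 1.60 FPKM for Cplx3 to 339 FPKM for Cplx1 in PBS 1d, and Syt2 and Vamp1 are the members whose LPS 7d points stand farthest above the other groups.

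At 1 day the members moved in both directions and by small amounts. In LPS 1d against PBS 1d, 12 of 35 members rose, 12 fell and 11 did not pass the test. Among all genes tested, 24.9% rose and 24.2% fell in that comparison, so 49.1% changed in either direction, against 68.6% of the members. The members' median absolute log2 fold change was 0.15, below the 0.22 of all genes, and their median was 0.01, against -0.01 for all genes. None of the 35 reached an absolute log2 fold change of 0.5, a size that 19.1% of all genes passed. The libraries of LPS 1d and PBS 1d did not overlap for 26 of 35 members in this comparison, against 54.5% of all genes; 13 lay above (27.4% of all genes) and 13 below (27.1%). The balance of rises and falls rested on the scale: general neuronal markers were lower in LPS 1d than in PBS 1d in 16 of 20 cases, with 1 higher and a median log2 fold change of -0.16. With libraries scaled to that list, which moved the median of all genes by 0.17, 20 members were higher in LPS 1d and 1, Unc13a, was lower. Syn1, Syp, Syt5, Vamp2, Rab3a, Cplx1, Cplx3 and Pclo passed as higher under that scaling but not with TMM.

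At 7 days falls outnumbered rises, beside the lower cortical, hippocampal and striatal marker levels given above. In LPS 7d against PBS 1d, 6 of 35 members rose, 20 fell and 9 did not pass. Of all genes, 16.8% rose and 18.9% fell (35.6% in either direction), against 74.3% of the members in either direction. The members' median log2 fold change was -0.17, against 0.00 for all genes, and their median absolute value was 0.21, against 0.17. The libraries did not overlap for 28 members, 7 of them higher (21.5% of all genes) and 21 lower (22.7%), against 44.2% of all genes in either direction. In LPS 7d against LPS 1d, 9 members rose, 20 fell and 6 did not pass, with a median of -0.11. Of all genes, 27.5% rose and 29.1% fell in that comparison, 56.6% in all, against 82.9% of the members. The members' median absolute log2 fold change between LPS 7d and LPS 1d was 0.21, below the 0.27 of all genes. An absolute value of 0.5 was reached by 8 of 35 members and by 25% of all genes. Without overlap between the libraries were 30 members, 9 higher (29.5% of all genes) and 21 lower (31.1%), against 60.6% of all genes. With the libraries scaled to the general neuron list, which moved the median of all genes by -0.17 here, 5 members were higher in LPS 7d than in LPS 1d. Syt2 was the only member past a 2-fold difference in either comparison with LPS 7d, a size that 4.22% of all genes passed against PBS 1d and 7.85% against LPS 1d. The 3 comparisons share libraries, so the values of a member in them are not independent.

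**Figure D3:**
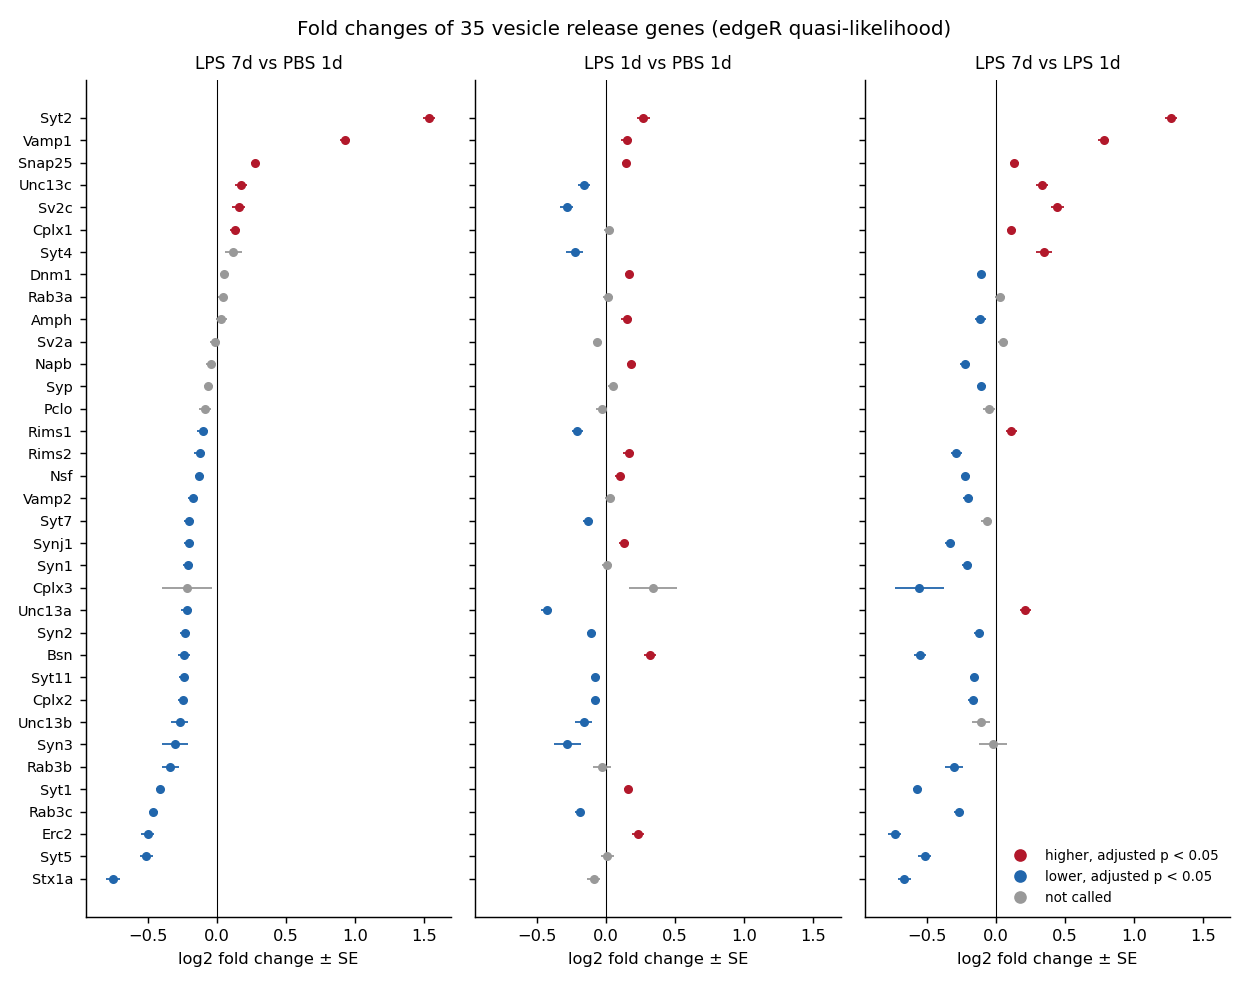
Log2 fold change of each member in LPS 7d against PBS 1d, LPS 1d against PBS 1d and LPS 7d against LPS 1d, with bars of 1 SE; red points were higher and blue points lower in the edgeR test, and grey points did not pass. The values at LPS 7d against PBS 1d run from -0.75 (Stx1a) to 1.54 (Syt2), while those at LPS 1d against PBS 1d lie between -0.43 and 0.34.

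Synaptotagmins, which include the calcium sensors of release, held the largest change. Of 6, 1 rose and 4 fell in LPS 7d against PBS 1d (16.8% and 18.9% of all genes). In LPS 1d against PBS 1d, 2 rose and 3 fell (24.9% and 24.2% of all genes). Syt2 (chr1:134574415-134690331, plus strand, GRCm39) had 244, 249.7 and 257 CPM in LPS 7d, 109, 104 and 98.8 CPM in LPS 1d, and 86.1, 83.6 and 88.6 CPM in PBS 1d. Every LPS 7d library lay above every LPS 1d library, and these above every PBS 1d library. Against PBS 1d, Syt2 was 2.91-fold higher in LPS 7d, a log2 fold change of 1.54 ± 0.05 (edgeR adjusted p = 6.02e-33), and it rose by 0.27 ± 0.05 in LPS 1d (edgeR adjusted p = 5.85e-06). Between LPS 7d and LPS 1d the difference was 1.27 ± 0.04 (edgeR adjusted p = 1.14e-29). Syt2 overlaps Ppp1r12b on the opposite strand, and the sources used here do not give the strandedness of counting. Ppp1r12b had 5971 counts in LPS 7d, 6360 in LPS 1d and 6142 in PBS 1d, while Syt2 had 12371, 4703 and 4086 in the same groups. The rise of Syt2 stood beside the cerebellar and hindbrain marker levels above.

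Syt1, the main fast sensor of forebrain synapses, moved the other way at 7 days. It had 1188, 1196 and 1208 CPM in LPS 7d, 1769, 1783 and 1775 CPM in LPS 1d, and 1634, 1566 and 1577 CPM in PBS 1d. The LPS 7d libraries were lowest, the LPS 1d libraries highest, and no groups overlapped. Its log2 fold change was -0.41 ± 0.03 in LPS 7d against PBS 1d (edgeR adjusted p = 3.71e-16), 0.16 ± 0.03 in LPS 1d against PBS 1d (edgeR adjusted p = 3.33e-05) and -0.57 ± 0.03 in LPS 7d against LPS 1d (edgeR adjusted p = 1.1e-21). Syt5, a synaptotagmin of vesicles and dense-core granules, had 84.5, 84.3 and 91.3 CPM in LPS 7d, 125, 121 and 126 CPM in LPS 1d, and 127, 126 and 117 CPM in PBS 1d. Only the LPS 7d libraries stood apart, below both other groups, which overlapped. Syt5 fell by 0.51 ± 0.05 in LPS 7d against PBS 1d (edgeR adjusted p = 1.14e-12) and its value in LPS 1d against PBS 1d was 0.01 ± 0.05 (edgeR adjusted p = 0.92). With libraries scaled to the general neuron list, the LPS 1d value was 0.1784 (edgeR adjusted p = 0.00637).

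Syt4, an activity-regulated synaptotagmin found on dense-core vesicles, varied more between libraries. It had 123, 117 and 108 CPM in LPS 7d, 79.0, 104 and 90.1 CPM in LPS 1d, and 98.2, 115 and 108 CPM in PBS 1d. The LPS 1d and PBS 1d libraries overlapped, and LPS 7d lay above all of LPS 1d. Syt4 fell by 0.23 ± 0.06 in LPS 1d against PBS 1d (edgeR adjusted p = 0.00192), a call lost without LPS 1d replicate 1 (edgeR adjusted p = 0.0644), in DESeq2 (adjusted p = 0.0854) and under scaling to the general neuron list (edgeR adjusted p = 0.448). It was higher in LPS 7d than in LPS 1d by 0.35 ± 0.06 (edgeR adjusted p = 3.28e-06). Against PBS 1d its 0.12 ± 0.06 in LPS 7d did not pass (edgeR adjusted p = 0.116), but passed without LPS 7d replicate 3 (edgeR adjusted p = 0.0307) and without PBS 1d replicate 2 (edgeR adjusted p = 0.036). Syt7, the slow sensor of asynchronous release and vesicle replenishment, averaged 370.3 ± 17.4 CPM in LPS 7d, 388 ± 1.96 CPM in LPS 1d and 425 ± 21.2 CPM in PBS 1d. It fell by 0.20 ± 0.04 in LPS 7d and by 0.13 ± 0.04 in LPS 1d against PBS 1d, the LPS 1d value turning to 0.0366 when libraries were scaled to the general neuron list. Syt11, which binds no calcium, averaged 857 ± 11.1 CPM in LPS 7d, 956 ± 7.84 CPM in LPS 1d and 1011 ± 10.5 CPM in PBS 1d. It fell by 0.24 ± 0.03 in LPS 7d (edgeR adjusted p = 1.98e-08). Its fall in LPS 1d of 0.08 ± 0.03 (edgeR adjusted p = 0.0334) turned to 0.0893 under the neuronal scaling. That call was lost without PBS 1d replicate 1 (edgeR adjusted p = 0.069) or 3 (0.104) and without LPS 1d replicate 2 (0.0841) or 3 (0.0996).

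The 4 SNARE genes split at 7 days against PBS 1d: Vamp1 and Snap25 rose (16.8% of all genes) and Stx1a and Vamp2 fell (18.9%). Vamp1 (chr6:125192514-125222927, plus strand, GRCm39), the vesicle SNARE of many hindbrain, spinal and motor terminals, had 352, 336 and 344 CPM in LPS 7d, 198, 199.6 and 202 CPM in LPS 1d, and 179.6, 184 and 178 CPM in PBS 1d. No groups overlapped, and the LPS 7d libraries stood far above the others. Vamp1 was 1.90-fold higher in LPS 7d than in PBS 1d, a log2 fold change of 0.93 ± 0.04 (edgeR adjusted p = 2.19e-26). It rose by 0.15 ± 0.04 in LPS 1d (edgeR adjusted p = 0.0016). Against LPS 1d it was 0.78 ± 0.04 higher in LPS 7d (edgeR adjusted p = 1.73e-23). Vamp1 overlaps Tapbpl and Cd27 on the opposite strand, with 474 and 8 counts in LPS 7d, 380 and 14 in LPS 1d, and 507 and 12 in PBS 1d, against 16991, 9098 and 8572 Vamp1 counts in those groups.

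Vamp2, the prevailing vesicle SNARE of the forebrain, had 708, 736 and 762 CPM in LPS 7d, 822, 852 and 859.9 CPM in LPS 1d, and 847, 822 and 819 CPM in PBS 1d. LPS 7d lay below both other groups, which overlapped. Vamp2 fell by 0.17 ± 0.03 in LPS 7d against PBS 1d (edgeR adjusted p = 4.57e-05), and its value in LPS 1d was 0.03 ± 0.03 (edgeR adjusted p = 0.532). With libraries scaled to the general neuron list, the LPS 1d value was 0.1972 (edgeR adjusted p = 0.000115). Stx1a (chr5:135052336-135079954, plus strand, GRCm39), a syntaxin of the presynaptic plasma membrane, had 71.3, 66.5 and 71.6 CPM in LPS 7d, 112, 106 and 113 CPM in LPS 1d, and 118, 116 and 119 CPM in PBS 1d. The LPS 7d libraries stood far below the others, while LPS 1d was just under PBS 1d without overlap. Stx1a fell by 0.75 ± 0.05 in LPS 7d against PBS 1d (edgeR adjusted p = 1.88e-18) and by 0.66 ± 0.05 against LPS 1d (edgeR adjusted p = 1.85e-16). Its -0.09 ± 0.05 in LPS 1d against PBS 1d did not pass (edgeR adjusted p = 0.109). Snap25, the other SNARE of the plasma membrane, had 1890.4, 1932 and 1978 CPM in LPS 7d, 1722, 1779.9 and 1779 CPM in LPS 1d, and 1619.8, 1602 and 1563 CPM in PBS 1d. The groups did not overlap, with LPS 7d highest and PBS 1d lowest. Snap25 rose by 0.28 ± 0.03 in LPS 7d (edgeR adjusted p = 1.57e-10) and by 0.14 ± 0.03 in LPS 1d (edgeR adjusted p = 0.000154) against PBS 1d. Its rise in LPS 7d against LPS 1d, 0.14 ± 0.03, turned to -0.0399 when libraries were scaled to the general neuron list.

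**Figure D4:**
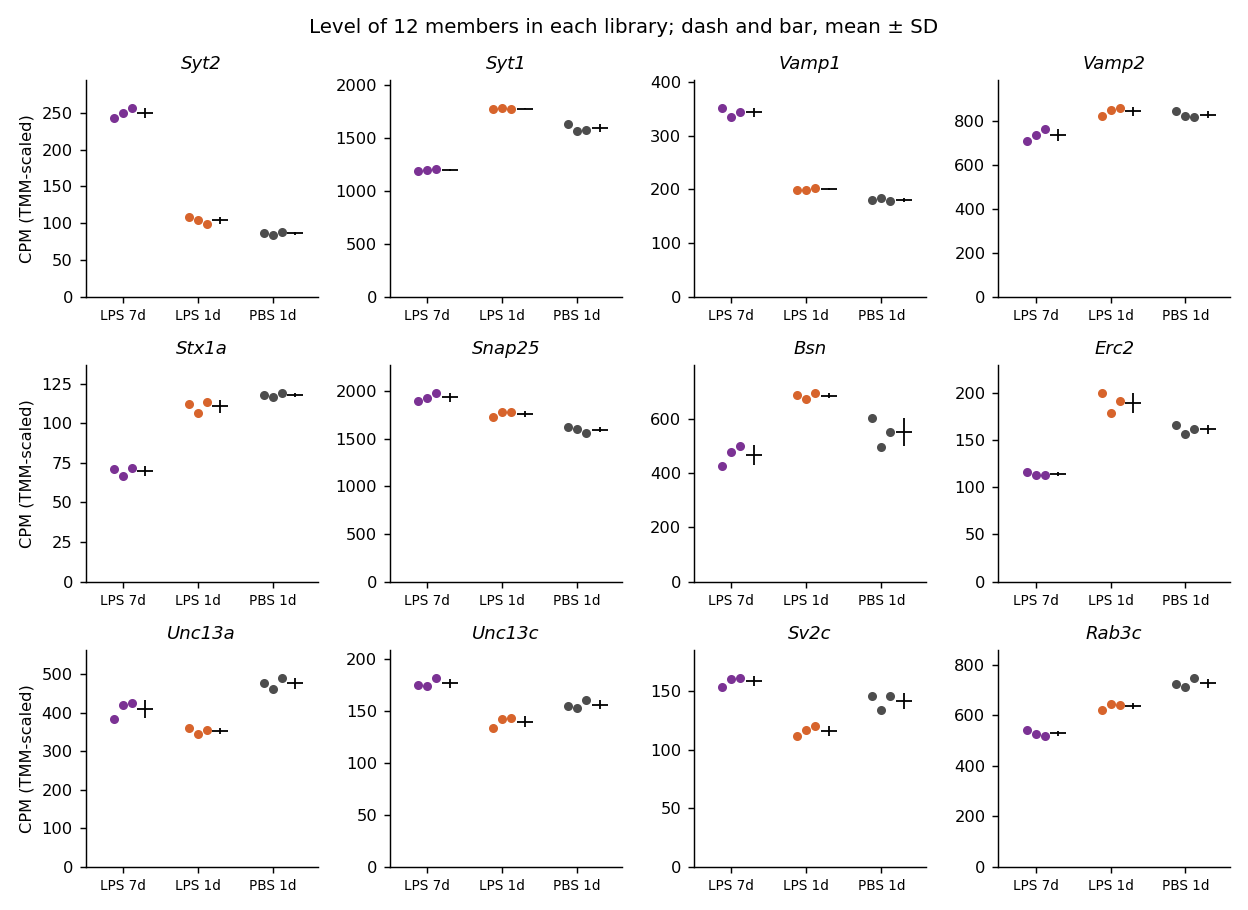
CPM in each library (points) of selected members in LPS 7d, LPS 1d and PBS 1d, with the group mean and SD (n = 3) as a dash and bar. For Syt2 and Vamp1 the LPS 7d libraries (244 to 257 and 336 to 352 CPM) lie above all others, and for Stx1a (66.5 to 71.6 CPM) and Syt1 (1188 to 1208 CPM) they lie below all others.

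Of 6 genes for vesicle proteins, 1 rose and 3 fell in LPS 7d against PBS 1d (16.8% and 18.9% of all genes). In LPS 1d against PBS 1d 3 fell, and the 50% called lay near the 49.1% of all genes. Sv2c, a vesicle glycoprotein most abundant in the basal ganglia, had 154, 161 and 161 CPM in LPS 7d, 112, 117 and 120.2 CPM in LPS 1d, and 146, 134 and 146 CPM in PBS 1d. LPS 1d was lowest and LPS 7d highest, with no overlap. Sv2c fell by 0.29 ± 0.05 in LPS 1d against PBS 1d (edgeR adjusted p = 8.87e-07), and its -0.1189 under the neuronal scaling did not pass (adjusted p = 0.073). It rose by 0.16 ± 0.04 in LPS 7d against PBS 1d (edgeR adjusted p = 0.00387) and by 0.45 ± 0.05 against LPS 1d (edgeR adjusted p = 5.61e-12). Over the same groups the striatal marker list was 11 of 11 lower in LPS 7d and 10 of 11 lower in LPS 1d than in PBS 1d. Sv2c shares its strand and part of its locus with Gm20075, which had 726 counts in LPS 7d, 1168 in LPS 1d and 997 in PBS 1d.

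Synapsins tether vesicles in the reserve pool. Syn3 had 16.2, 19.6 and 17.9 CPM in LPS 7d, 18.5, 15.8 and 20.2 CPM in LPS 1d, and 24.1, 21.1 and 20.9 CPM in PBS 1d. Both LPS groups lay below PBS 1d and overlapped each other. Syn3 fell by 0.30 ± 0.10 in LPS 7d (edgeR adjusted p = 0.0107) and by 0.28 ± 0.10 in LPS 1d (edgeR adjusted p = 0.0144). The LPS 7d call was lost without PBS 1d replicate 1 (edgeR adjusted p = 0.097) or LPS 7d replicate 1 (0.0744), and the LPS 1d call without PBS 1d replicate 1 (0.107) or LPS 1d replicate 2 (0.15), or under the neuronal scaling (0.364). Timp3 lies within Syn3 on the opposite strand and had 3997 counts in LPS 7d, 5550 in LPS 1d and 5130 in PBS 1d, against 885, 826 and 1051 for Syn3. How reads shared by these genes were counted was not tested. Syn1 averaged 456 ± 13.8 CPM in LPS 7d, 526 ± 9.98 CPM in LPS 1d and 525 ± 18.1 CPM in PBS 1d, and fell by 0.21 ± 0.04 in LPS 7d against PBS 1d (edgeR adjusted p = 5.74e-06). Syn2 averaged 403 ± 2.36 CPM in LPS 7d, 439 ± 4.18 CPM in LPS 1d and 473 ± 4.63 CPM in PBS 1d. It fell by 0.23 ± 0.03 in LPS 7d (edgeR adjusted p = 2.44e-07) and by 0.11 ± 0.03 in LPS 1d (edgeR adjusted p = 0.008) against PBS 1d, the LPS 1d value turning to 0.0615 under the neuronal scaling. Syp, synaptophysin, a major membrane protein of the vesicle, averaged 573 ± 7.00 CPM in LPS 7d, 617 ± 14.6 CPM in LPS 1d and 598 ± 5.65 CPM in PBS 1d. With TMM scaling it passed only between LPS 7d and LPS 1d, at -0.11 ± 0.03 (edgeR adjusted p = 0.00703). In LPS 1d against PBS 1d, its 0.2167 under the neuronal scaling passed (edgeR adjusted p = 3.45e-05). Syn1 and Syp are X-linked. Sv2a, the binding site of the drug levetiracetam, ranged from 562 to 578 CPM in LPS 7d, 534 to 560.0 CPM in LPS 1d and 562 to 589 CPM in PBS 1d and passed no test with TMM scaling.

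Rab3 proteins are small GTPases of the vesicle surface that bind RIM. Rab3c had 539.9, 525 and 519 CPM in LPS 7d, 622, 643 and 641 CPM in LPS 1d, and 724, 709.6 and 746 CPM in PBS 1d. The groups stepped down without overlap, with PBS 1d highest and LPS 7d lowest. Rab3c fell by 0.46 ± 0.03 in LPS 7d (edgeR adjusted p = 2.37e-16) and by 0.19 ± 0.03 in LPS 1d (edgeR adjusted p = 5.96e-06) against PBS 1d. The LPS 1d value was -0.0234 under the neuronal scaling (edgeR adjusted p = 0.711). Rab3b averaged 40.1 ± 1.82 CPM in LPS 7d, 49.7 ± 3.25 CPM in LPS 1d and 50.7 ± 0.471 CPM in PBS 1d. It fell by 0.34 ± 0.06 in LPS 7d against PBS 1d (edgeR adjusted p = 2.77e-05), while its -0.03 ± 0.06 in LPS 1d did not pass. Rab3a, whose 279.8 FPKM in PBS 1d exceeded the 60.0 FPKM of Rab3c and the 14.3 FPKM of Rab3b, ranged from 632 to 652 CPM in LPS 7d, 619 to 648 CPM in LPS 1d and 616 to 641 CPM in PBS 1d. Its log2 fold changes of 0.04 ± 0.03, 0.01 ± 0.03 and 0.03 ± 0.03 (LPS 7d against PBS 1d, LPS 1d against PBS 1d and LPS 7d against LPS 1d) did not pass.

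Complexins bind the assembled SNARE complex. Cplx1 had 765, 824 and 869 CPM in LPS 7d, 770.3, 746 and 756 CPM in LPS 1d, and 759, 744 and 736 CPM in PBS 1d. One LPS 7d library lay level with the other groups and the remaining LPS 7d libraries above them. Cplx1 rose by 0.13 ± 0.04 in LPS 7d against PBS 1d (edgeR adjusted p = 0.00245). Against LPS 1d it rose by 0.11 ± 0.04 (edgeR adjusted p = 0.00663), which turned to -0.0628 under the neuronal scaling. Without LPS 7d replicate 3 neither rise passed (edgeR adjusted p = 0.0714 against PBS 1d and 0.127 against LPS 1d). Cplx2, the complexin of many excitatory forebrain neurons, had 976, 1035 and 1059 CPM in LPS 7d, 1120.1, 1172 and 1153 CPM in LPS 1d, and 1225, 1207 and 1209 CPM in PBS 1d. The groups did not overlap, with LPS 7d lowest. Cplx2 fell by 0.25 ± 0.03 in LPS 7d against PBS 1d (edgeR adjusted p = 2.31e-08). Its fall of 0.08 ± 0.03 in LPS 1d (edgeR adjusted p = 0.0421) turned to 0.0901 under the neuronal scaling. That call was also lost without PBS 1d replicate 1 (edgeR adjusted p = 0.0875) or 3 (0.0894), LPS 1d replicate 1 (0.162) or 3 (0.0872), or LPS 7d replicate 2 (0.0534). Cplx3, known from ribbon synapses of the retina and from subplate neurons, had 3.55, 4.32 and 4.50 CPM in LPS 7d, 5.16, 6.17 and 6.76 CPM in LPS 1d, and 5.35, 5.06 and 3.88 CPM in PBS 1d. LPS 7d lay below LPS 1d, and PBS 1d overlapped both. Cplx3 was lower in LPS 7d than in LPS 1d by a log2 fold change of -0.56 ± 0.18 (edgeR adjusted p = 0.0063), and without LPS 1d replicate 3 the adjusted p was 0.05.

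Munc13 proteins, encoded by the Unc13 genes, prime docked vesicles for fusion. Unc13a, the form used by most excitatory forebrain synapses, had 383, 419 and 426 CPM in LPS 7d, 360.0, 345 and 355 CPM in LPS 1d, and 478, 462 and 489.8 CPM in PBS 1d. PBS 1d was highest and LPS 1d lowest, with no overlap. Unc13a fell by 0.43 ± 0.04 in LPS 1d (edgeR adjusted p = 1.59e-13), the largest fall of a member at 1 day, and by 0.22 ± 0.04 in LPS 7d (edgeR adjusted p = 5.47e-06). It was higher in LPS 7d than in LPS 1d by 0.21 ± 0.04 (edgeR adjusted p = 5.08e-06), but by only 0.0382 when libraries were scaled to the general neuron list (adjusted p = 0.526). Unc13c, the form known from cerebellar granule cells, had 174, 174 and 181 CPM in LPS 7d, 133, 142 and 143 CPM in LPS 1d, and 155, 152 and 160.1 CPM in PBS 1d. LPS 7d was highest and LPS 1d lowest, without overlap. Unc13c rose by 0.18 ± 0.04 in LPS 7d against PBS 1d (edgeR adjusted p = 0.000683) and by 0.34 ± 0.04 against LPS 1d (edgeR adjusted p = 3.04e-09). Its fall of 0.16 ± 0.04 in LPS 1d (edgeR adjusted p = 0.00212) turned to 0.0094 under the neuronal scaling. Unc13b had 50.7, 47.8 and 45.3 CPM in LPS 7d, 51.0, 51.3 and 52.3 CPM in LPS 1d, and 62.9, 55.7 and 54.3 CPM in PBS 1d. The groups did not overlap, with LPS 7d lowest and PBS 1d highest. Unc13b fell by 0.27 ± 0.06 in LPS 7d (edgeR adjusted p = 0.000481) and by 0.16 ± 0.06 in LPS 1d (edgeR adjusted p = 0.0282), the LPS 1d value turning to 0.0087 under the neuronal scaling. The LPS 1d call was lost without PBS 1d replicate 1 (edgeR adjusted p = 0.261), without LPS 1d replicate 1 (0.0667), 2 (0.0715) or 3 (0.0502), and in DESeq2 (adjusted p = 0.0515).

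Among all 8 active zone and priming genes, the Unc13 genes included, 3 rose and 4 fell in LPS 1d against PBS 1d (24.9% and 24.2% of all genes). In LPS 7d against PBS 1d, 1 rose and 6 fell (16.8% and 18.9% of all genes). The scaffold genes Bsn, Erc2 and Rims2 made up the rises at 1 day and were among the falls at 7 days. Bsn, the giant scaffold Bassoon, had 426, 476 and 499 CPM in LPS 7d, 686, 673 and 693 CPM in LPS 1d, and 602, 497 and 551 CPM in PBS 1d. LPS 1d was highest without overlap, and LPS 7d and PBS 1d overlapped. Bsn rose by 0.31 ± 0.04 in LPS 1d against PBS 1d (edgeR adjusted p = 6.82e-08), the largest rise of a member at 1 day that passed. It fell by 0.24 ± 0.05 in LPS 7d against PBS 1d (edgeR adjusted p = 2.67e-05) and by 0.55 ± 0.04 against LPS 1d (edgeR adjusted p = 3.38e-15). Erc2, an ELKS-family protein that binds RIM and Bassoon, had 116, 113 and 113 CPM in LPS 7d, 199.6, 178 and 191 CPM in LPS 1d, and 166, 156 and 162 CPM in PBS 1d. The groups did not overlap, with LPS 1d highest and LPS 7d lowest. Erc2 rose by 0.23 ± 0.04 in LPS 1d (edgeR adjusted p = 1.84e-05) and fell by 0.50 ± 0.05 in LPS 7d (edgeR adjusted p = 1.72e-13) against PBS 1d. Between LPS 7d and LPS 1d it fell by 0.73 ± 0.04 (edgeR adjusted p = 9.02e-20), the largest fall of a member in that comparison.

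Rims1, a RIM protein that recruits calcium channels and Munc13, had 254, 242 and 248 CPM in LPS 7d, 237, 220.5 and 232 CPM in LPS 1d, and 276, 257 and 264 CPM in PBS 1d. LPS 1d was lowest and PBS 1d highest, without overlap. Rims1 fell by 0.21 ± 0.04 in LPS 1d against PBS 1d (edgeR adjusted p = 1.99e-05), and its value under the neuronal scaling was -0.0402 (adjusted p = 0.546). Its fall of 0.10 ± 0.04 in LPS 7d (edgeR adjusted p = 0.0451) was lost without PBS 1d replicate 1 (edgeR adjusted p = 0.216) or 3 (0.105), LPS 1d replicate 3 (0.0592), or LPS 7d replicate 2 (0.181) or 3 (0.0953). It was also lost in DESeq2 (adjusted p = 0.071), with DESeq2 size factors (edgeR adjusted p = 0.0609), without the filter (0.0789), with only the 2 groups compared (0.0827) and on autosomes (0.0823). Library totals alone (0.245), the neuronal scaling (0.121) and the replicate block (0.0552) lost it too. Its rise of 0.11 ± 0.04 in LPS 7d against LPS 1d (edgeR adjusted p = 0.0163) turned to -0.0634 under the neuronal scaling and was lost without LPS 1d replicate 2 (0.128) or LPS 7d replicate 1 (0.0556). Rims2 averaged 150.1 ± 2.74 CPM in LPS 7d, 183 ± 4.82 CPM in LPS 1d and 164 ± 3.59 CPM in PBS 1d. It rose by 0.16 ± 0.04 in LPS 1d (edgeR adjusted p = 0.00115) and fell by 0.12 ± 0.04 in LPS 7d (edgeR adjusted p = 0.0168) against PBS 1d. The fall was lost without PBS 1d replicate 3 (edgeR adjusted p = 0.0902) or LPS 7d replicate 2 (0.0869), with library totals alone (0.113) and under the neuronal scaling (0.0614). Pclo, the scaffold Piccolo, ranged from 325 to 353 CPM in LPS 7d, 338 to 361 CPM in LPS 1d and 329 to 388 CPM in PBS 1d. It passed no test with all libraries and TMM scaling. Without PBS 1d replicate 2 it was lower in LPS 7d than in PBS 1d by a log2 fold change of -0.14 (edgeR adjusted p = 0.0064). Under the neuronal scaling it passed at 0.1347 in LPS 1d against PBS 1d (edgeR adjusted p = 0.0187). It also passed there at -0.2222 in LPS 7d against LPS 1d (edgeR adjusted p = 5.52e-05).

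All 5 genes that recycle SNAREs or retrieve membrane rose in LPS 1d against PBS 1d (24.9% of all genes) and were lower in LPS 7d than in LPS 1d (29.1% of all genes). With library totals alone, Dnm1 and Amph lost the second call (edgeR adjusted p = 0.157 and 0.235). Dnm1, the dynamin that cuts endocytic vesicles at synapses, had 1399, 1415 and 1393 CPM in LPS 7d, 1534, 1479 and 1518 CPM in LPS 1d, and 1348, 1337 and 1361 CPM in PBS 1d. No groups overlapped and LPS 1d was highest. Dnm1 rose by 0.16 ± 0.03 in LPS 1d against PBS 1d (edgeR adjusted p = 1.96e-05) and fell by 0.11 ± 0.03 in LPS 7d against LPS 1d (edgeR adjusted p = 0.00295). Napb, beta-SNAP, a brain adaptor that brings Nsf to SNARE complexes, had 432, 436 and 415 CPM in LPS 7d, 495, 503 and 499 CPM in LPS 1d, and 441, 436 and 443 CPM in PBS 1d. LPS 1d lay above the other groups, which were nearly level. Napb rose by 0.18 ± 0.04 in LPS 1d against PBS 1d (edgeR adjusted p = 2.32e-05), and its -0.04 ± 0.04 in LPS 7d did not pass (edgeR adjusted p = 0.396). Nsf, the ATPase that separates used SNARE complexes, averaged 967 ± 3.29 CPM in LPS 7d, 1128 ± 26.2 CPM in LPS 1d and 1054 ± 7.86 CPM in PBS 1d. It rose by 0.10 ± 0.03 in LPS 1d (edgeR adjusted p = 0.00964; without LPS 1d replicate 1, 0.0637) and fell by 0.12 ± 0.03 in LPS 7d (edgeR adjusted p = 0.00147). Synj1, a lipid phosphatase that helps to uncoat vesicles, averaged 450.0 ± 8.02 CPM in LPS 7d, 566 ± 10.1 CPM in LPS 1d and 517 ± 18.1 CPM in PBS 1d. It rose by 0.13 ± 0.04 in LPS 1d (edgeR adjusted p = 0.00201) and fell by 0.20 ± 0.04 in LPS 7d (edgeR adjusted p = 6.83e-06). Amph, which recruits dynamin, averaged 241 ± 8.66 CPM in LPS 7d, 261 ± 11 CPM in LPS 1d and 236 ± 4.86 CPM in PBS 1d. It rose by 0.15 ± 0.04 in LPS 1d against PBS 1d (edgeR adjusted p = 0.00213). Its fall of 0.11 ± 0.04 in LPS 7d against LPS 1d (edgeR adjusted p = 0.0142) was lost without LPS 1d replicate 1 (0.133) or LPS 7d replicate 2 (0.0928) or 3 (0.0571).

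Across the comparisons the calls formed a few patterns. Syt2, Snap25 and Vamp1 rose in all 3. Syt1, Rims2, Bsn, Erc2, Nsf and Synj1 were higher in LPS 1d and lower in LPS 7d than in PBS 1d, and lower in LPS 7d than in LPS 1d. Syn2, Syt11, Rab3c and Cplx2 fell in all 3, and Sv2c and Unc13c were lower in LPS 1d but higher in LPS 7d than in PBS 1d. Sv2a, Rab3a and Pclo passed in none with all libraries and TMM scaling. With library totals alone, Rab3a passed in LPS 7d against PBS 1d (0.0818, edgeR adjusted p = 0.0492) and against LPS 1d (0.0867, adjusted p = 0.0241). Sv2a then passed in LPS 1d against PBS 1d (-0.0814, edgeR adjusted p = 0.0449) and in LPS 7d against LPS 1d (0.1092, adjusted p = 0.00566). Under the neuronal scaling, Rab3a (0.1834) and Pclo (0.1347) passed in LPS 1d against PBS 1d. In LPS 7d against LPS 1d, Sv2a (-0.1226), Rab3a (-0.145) and Pclo (-0.2222) passed under it.

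The balance within 4 families whose forms are known to differ between brain regions was measured per gene length. These families were chosen with earlier results known, and the shares are another reading of the member levels above, not independent of them. Syt2 made up 18.3, 18.6 and 18.8% of Syt1 plus Syt2 in LPS 7d, 6.28, 5.99 and 5.73% in LPS 1d, and 5.44, 5.51 and 5.78% in PBS 1d. LPS 7d lay 13 percentage points above PBS 1d and 12.57 above LPS 1d, while LPS 1d and PBS 1d overlapped. The exact two-sided permutation test of 3 against 3 libraries cannot go below p = 0.1, the value it gave for both comparisons with LPS 7d (exact p = 0.2 for LPS 1d against PBS 1d). Vamp1 made up 15.7, 14.6 and 14.5% of Vamp1 plus Vamp2 in LPS 7d, 8.29, 8.07 and 8.09% in LPS 1d, and 7.36, 7.74 and 7.52% in PBS 1d. No groups overlapped, and the difference between LPS 7d and PBS 1d was 7.374 percentage points per length, or 13.99 on plain counts. Cplx1 made up 64.3 ± 0.552% of Cplx1 plus Cplx2 in LPS 7d, 59.8 ± 0.938% in LPS 1d and 58.1 ± 0.216% in PBS 1d (SD, n = 3). Unc13c made up 36.7 ± 0.986% of the 3 Unc13 genes in LPS 7d, 34.4 ± 1.22% in LPS 1d and 30.5 ± 0.272% in PBS 1d. Each of these comparisons for Vamp1, Cplx1 and Unc13c gave an exact permutation p of 0.1 without overlap. The share of Unc13c was thus higher in LPS 1d than in PBS 1d although its own level fell, as Unc13a fell further. The cerebellar and hindbrain markers moved with the LPS 7d shares, and their part was not tested.

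**Figure D5:**
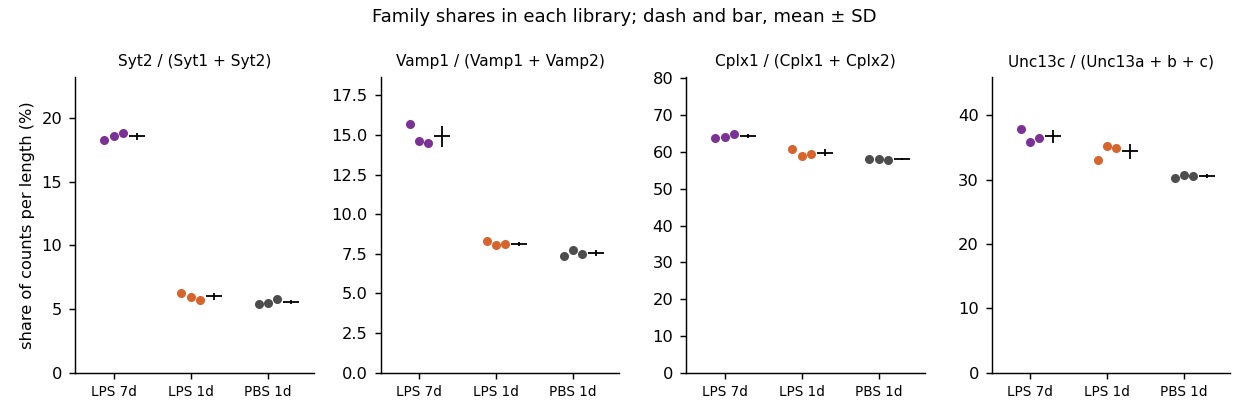
Share (percent, per gene length) of Syt2, Vamp1, Cplx1 and Unc13c within their families in each library (points) of LPS 7d, LPS 1d and PBS 1d, with mean and SD (n = 3). The Syt2 share is 18.3 to 18.8% in LPS 7d, against 5.44 to 5.78% in PBS 1d, and the Vamp1 share is 14.5 to 15.7% in LPS 7d, against 7.36 to 7.74% in PBS 1d.

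Other genes of the pathway were counted in 3 further lists. Of 39 tested genes of the remaining release machinery, 8 were higher and 16 lower in LPS 7d than in PBS 1d, with a median log2 fold change of -0.04. Of these 39 genes, 61.5% were called, against 35.6% of all genes, but their median absolute log2 fold change was 0.15, below the 0.17 of all genes. In LPS 1d against PBS 1d, 4 were higher and 16 lower, with a median of -0.11, and the 51.3% called lay near the 49.1% of all genes. Ppfia4, a liprin of the active zone, and Cadps2, a priming factor of dense-core vesicles, rose in LPS 7d by 0.66 ± 0.05 and 0.58 ± 0.05 against PBS 1d (edgeR adjusted p = 8.89e-18 and 2.76e-14). Syt6 fell by 0.77 ± 0.06 and Rimbp2, which links RIM to calcium channels, by 0.49 ± 0.05 (edgeR adjusted p = 4.94e-16 and 1.77e-12). In LPS 1d against PBS 1d, Sv2b rose by 0.24 ± 0.04 and Cadps2 by 0.23 ± 0.05, and Syngr3, a vesicle membrane protein, fell by 0.50 ± 0.05 and Syt6 by 0.61 ± 0.06 (edgeR adjusted p = 6.02e-07, 0.000207, 5.54e-13 and 2.28e-12). Relative to LPS 1d, 15 were higher and 9 lower in LPS 7d, 61.5% of the list against 56.6% of all genes. Among these, Ppfia4 and Rph3a, a Rab3 effector, were higher by 0.73 ± 0.05 and 0.30 ± 0.04, and Sv2b and Stxbp5 fell by 0.58 ± 0.04 and 0.36 ± 0.05.

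Of 27 other endocytosis genes, 6 were higher and 10 lower in LPS 7d, and 6 higher and 9 lower in LPS 1d, than in PBS 1d. These calls made up 59.3% of the list in LPS 7d (35.6% of all genes) and 55.6% in LPS 1d (near the 49.1% of all genes). The list's median absolute log2 fold change in LPS 7d against PBS 1d was 0.12, below the 0.17 of all genes. Hspa8, the chaperone that removes clathrin coats, had 1431 ± 24.2 CPM in LPS 7d and 999 ± 42.3 CPM in PBS 1d, a rise of 0.52 ± 0.03 (edgeR adjusted p = 9.36e-19). Sh3gl2, an endophilin, rose by 0.26 ± 0.04 in LPS 7d, while Dnajc6 and Pacsin1 fell by 0.21 ± 0.04 and 0.18 ± 0.04. In LPS 1d against PBS 1d, Ap2a2 and Dnm2 rose by 0.21 ± 0.04 and 0.23 ± 0.05, and Itsn1 and Pacsin1 fell by 0.26 ± 0.04 and 0.21 ± 0.04. Relative to LPS 1d, 6 were higher and 7 lower in LPS 7d (48.1%, against 56.6% of all genes), led by Hspa8 (0.69 ± 0.03) and Itsn1 (0.26 ± 0.04) upward and by Ap2a2 (-0.26 ± 0.04) and Eps15l1 (-0.33 ± 0.06) downward.

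Of 22 vesicle transporters and proton pump subunits, 4 were higher and 7 lower in LPS 7d than in PBS 1d, and 5 were higher and 4 lower in LPS 1d. At 1 day the 40.9% called lay below the 49.1% of all genes, and in LPS 7d against PBS 1d 11 of 22 were called, against 35.6% of all genes. The list's median absolute log2 fold change in the latter comparison was 0.12, below the 0.17 of all genes. Slc17a6, the glutamate transporter of thalamic neurons, averaged 163 ± 14.1 CPM in LPS 7d, 135 ± 0.795 CPM in LPS 1d and 198 ± 3.57 CPM in PBS 1d, and fell by 0.55 ± 0.05 in LPS 1d against PBS 1d (edgeR adjusted p = 2.15e-14). Slc32a1, the GABA and glycine transporter, fell by 0.46 ± 0.05 in LPS 1d (edgeR adjusted p = 7.6e-12), whereas Slc17a7, the cortical glutamate transporter, rose by 0.30 ± 0.03 (edgeR adjusted p = 1.69e-10). Slc17a9, the vesicular nucleotide transporter, averaged 0.519 ± 0.473 CPM in LPS 7d, 7.40 ± 1.00 CPM in LPS 1d and 0.391 ± 0.252 CPM in PBS 1d, a rise of 4.25 ± 0.34 in LPS 1d against PBS 1d (edgeR adjusted p = 4.32e-15). At LPS 7d against PBS 1d, Atp6v0c, a pump subunit, and Slc18a2, the monoamine transporter, rose by 0.34 ± 0.05 and 0.55 ± 0.10, and Slc30a3 and Slc17a8 fell by 0.58 ± 0.07 and 1.18 ± 0.19. Relative to LPS 1d, 6 were higher and 9 lower in LPS 7d (68.2%, against 56.6% of all genes), among them Slc32a1 (0.37 ± 0.05) and Slc18a2 (0.68 ± 0.10) upward and Slc17a7 (-0.43 ± 0.03) and Slc17a9 (-3.79 ± 0.32) downward.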

How the data were processed

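Transcripts were sequenced from PVT tissue in 9 libraries (Trizol RNA and a TruSeq RNA kit, per the labels' protocols). The authors deposited 1 table with counts per gene (whole reads, not normalized), FPKM values (scaled by the authors for gene length and library total) and other columns such as gene length, position and name, per the file headers. TopHat2, HISAT2, HTSeq and GRCm39 are named, per the submitters' processing notes; not given in the sources used here are the aligner behind the counts, tool versions and strandedness. FPKM recomputed from the deposited counts, lengths and totals differed by a relative 1.6e-07 at most. No sample column was left unused (0), and no row lacked a gene name (0).

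Of 21899 genes, 3516 had no count and 14837 passed filterByExpr. The counts were fitted with edgeR 4.0.16 (R 4.3.3) by quasi-likelihood, with 1 coefficient for each group, all 9 libraries together and TMM factors of 0.983 to 1.03, and each of the 3 comparisons was a contrast. The biological coefficient of variation was 4.15% in common and 5.3% for the median gene; degrees of freedom were 6 (residual) and 43.4 (prior). Tests were two-sided, with Benjamini-Hochberg adjustment over all genes tested and a threshold of 0.05. SE values are the absolute log2 fold change over the square root of F. Library totals of 13211422 to 17210526 counts limit the precision of low genes such as Cplx3. Family shares used counts per gene length and exact permutation tests. No pair of libraries in a group looked like 1 library deposited again: chi-square over degrees of freedom was 2.01 to 3.66.

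The titles number the replicates, but same-numbered libraries did not deviate together (correlations of deviations from -0.0774 to 0.0295), so the tests reported have no block. Alternatives were other scalings, no filter, DESeq2 1.42.0, limma 3.58.1 (voom), fits on 2 groups or on autosomes, the replicate block and each library left out in turn. The members, the other gene lists and the tests were chosen with earlier results of these data known. Values in every library are given for the 5 largest rises and 5 largest falls among called members per comparison and for both partners of each family share; in the other pathway lists, the 2 genes with the smallest p per direction are named. The method was tested on simulated data. Promoter sequences came from RefSeq, build GRCm38.p6.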

Additional observations from a re-analysis of the deposited data

How the results depend on the processing

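The counts of members that rose or fell kept within 1.5 times under every alternative except when libraries were scaled to the general neuron list. That scaling moved the median of all genes by 0.17 in LPS 1d against PBS 1d and by -0.17 in LPS 7d against LPS 1d. It gave 20 higher and 1 lower member in LPS 1d against PBS 1d, and 5 higher members in LPS 7d against LPS 1d. The share of rises among all genes called moved to 80.6%, against 50.7%, in the first of these comparisons and to 23.9%, against 48.5%, in the second. Sign changes were counted only for members that passed with TMM or under the neuronal scaling. In LPS 1d against PBS 1d the scaling turned the sign of 7 such members: Syn2 (0.0615), Syt7 (0.0366), Syt11 (0.0893), Cplx2 (0.0901), Unc13b (0.0087), Unc13c (0.0094) and Pclo (0.13). In LPS 7d against LPS 1d it turned 5 such members: Sv2a (-0.12), Snap25 (-0.0399), Rab3a (-0.15), Cplx1 (-0.0628) and Rims1 (-0.0634). No other alternative turned the sign of a called member, and the cause was not tested. Of 105 tests (35 members, 3 comparisons), limma-voom kept 105 on their side of the threshold, DESeq2 102 and library totals alone 93. Under library totals, Syn2, Syp, Dnm1 and Amph lost their calls in LPS 7d against LPS 1d, and Rims1 and Rims2 in LPS 7d against PBS 1d. That scaling also gained 6 calls: Sv2a in LPS 1d against PBS 1d, Syt4, Rab3a and Dnm1 in LPS 7d against PBS 1d (9 higher members in all, against 6), and Sv2a and Rab3a in LPS 7d against LPS 1d. Leaving out each library in turn gave 11 to 12 higher and 8 to 12 lower members in LPS 1d against PBS 1d, 6 to 7 and 18 to 21 in LPS 7d against PBS 1d, and 8 to 9 and 19 to 20 in LPS 7d against LPS 1d. With the replicate block, which the check of the numbers does not bear out as a pairing, 12 members were higher and 10 lower in LPS 1d against PBS 1d (Syt11 and Cplx2 were lost), and 6 higher and 19 lower in LPS 7d against PBS 1d (Rims1 was lost). Depth limited Cplx3, whose SE reached 0.18. With 3 libraries a group, the family shares cannot reach an exact permutation p under 0.1.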

Other observations

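The general neuron list, which holds no member of the release machinery, was mixed in direction in LPS 7d against PBS 1d, although in LPS 1d against PBS 1d 16 of its 20 genes were lower and 1 higher. In LPS 7d against PBS 1d, 9 of its 20 genes were higher and 6 lower, and in LPS 7d against LPS 1d 14 were higher and 3 lower. Among them the neurofilament genes, which encode the cytoskeleton of large myelinated axons, stood highest in LPS 7d. Nefm had 465 to 502 CPM in LPS 7d, 243 to 269 CPM in LPS 1d and 327 to 347 CPM in PBS 1d. Nefh had 309 to 353 CPM in LPS 7d, 160 to 163 CPM in LPS 1d and 170 to 191 CPM in PBS 1d. The groups did not overlap for either gene. These genes were named after their values were seen. Oligodendrocyte markers were also higher in LPS 7d, where 8 genes summed to 9526 to 10164 CPM, than in LPS 1d (7112 to 7145 CPM) or PBS 1d (7160.1 to 7507 CPM).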
